A study of Homo sapiens with 6 samples.

Results

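Sites in the genes of the translation initiation factors were examined in 6 PAR-CLIP libraries. Members were the protein-coding genes whose names begin with EIF1 to EIF6, with the EIF2AK kinases and Y-linked copies left out, and 51 of 19247 annotated protein-coding genes were members. PAR-CLIP feeds cells 4-thiouridine (4SU), crosslinks bound protein with UV light of 365nm, and leaves T-to-C conversions in the reads at crosslinked positions. All libraries came from HEK293, an established human embryonic kidney line, and all lysates were digested with RNase T1, which cuts RNA after G. HuR libraries (replicates 1 and 2) were FLAG M2 immunoprecipitates of HuR, an RNA-binding protein that recognizes U-rich and AU-rich sequences. Background libraries were FLAG M2 immunoprecipitates of GFP, cut from the gel at about 20, 35 and 45 kDa (G20, G35 and G45). The cells stably expressed a Dox-inducible transgene for HuR or GFP and were induced with doxycycline. Total was RNA from a lysate of 4SU-labeled, crosslinked cells that was digested with RNase T1 and proteinase K and depleted of rRNA, with no antibody.

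Initiation factors bring the small ribosomal subunit and the initiator tRNA to the start codon of an mRNA. The eIF4F complex binds the cap through eIF4E, bridges to the ribosome through eIF4G and unwinds the 5′ leader through the helicase eIF4A, and the 4E-binding proteins block this step by holding eIF4E. The large eIF3 complex organizes the scanning ribosome together with eIF1 and eIF1A. eIF2 delivers the initiator tRNA and is recharged with GTP by eIF2B, eIF5 and eIF5B trigger GTP hydrolysis and subunit joining, and eIF6 keeps free large subunits apart from small ones. The members are thus mRNAs of the translation machinery, and the data show which stretches of these mRNAs and of their precursors were recovered in each library. The rule also took in a few genes by name alone, such as EIF1AD, named for a domain, and EIF4ENIF1, the eIF4E transporter.

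Site tables list every stretch of genome with at least 1 uniquely mapped read, as deposited by the authors. Members held 1739 sites and 8912 reads in G20, 409 sites and 2333 reads in G35, and 590 sites and 2796 reads in G45. HuR replicate 1 had 5578 sites with 11883 reads and HuR replicate 2 had 8416 sites with 95839 reads, compared to 6808 sites with 56700 reads in Total. Values in RPM are reads for every 1000000 sense reads in mature transcripts (coding sequence and UTRs) of all protein-coding genes. This total ranged from 332121 reads in G45 to 5485189 in Total, so that 3 reads, taken as the floor, correspond to 9.03 RPM in G45, the shallowest library, and to 0.547 in Total. Of 6 genes listed as HEK293 markers, VIM had 2268 and LIN28B 627 mature reads in Total, but KRT18 had 35, KRT8 33, PAX2 17 and NEFM 4. Of 5 markers of other cell types, ALB had 41, COL1A1 22, PTPRC 3, and CD3E and HBA1 0, so only VIM and LIN28B stood above these. Each slice and Total was a single library, so p-values below measure the spread between 3 slices of different size and between 2 HuR replicates. The slices were regions cut from a control gel and none was repeated, so theirs is not the spread between repeated background preparations. Intervals and floors cover counting error only, since the reads carry no molecular identifiers.

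Sequence identity between members and their copies limits what can be seen. A word of 20 bases from the mature transcript occurred once in GRCh37 for 98.9% of the words of EIF6, 97.5% of EIF4G2 and 97.2% of EIF4G1, but for 25.4% of EIF5A, 26.2% of EIF4A1, 36.5% of EIF2S3, 35.7% of EIF4E, 36.0% of EIF1AX, 18.0% of EIF4H, 10.4% of EIF4B and 0.0797% of EIF3C. EIF3CL, a copy of EIF3C, had no such word and no mature read in any library, and it was the only silent member. Values for EIF3C, EIF5A, its copy EIF5AL1, EIF4A1, EIF4B, EIF4H, EIF4E, EIF1AX and EIF2S3 are therefore uncertain, because reads that match a paralog or pseudogene equally well were not kept.

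The sites that carried most reads are shown here to let the sequences be read beside the values. Positions are in hg19 with both ends counted, the sense strand is given 5′ to 3′ as DNA, and of sites longer than 30 bases only the central 25 are shown. For HuR, the 5 3′UTR sites are those with the most reads in the lower replicate among sites of both replicates that overlapped no background site, and capitals mark TTTTT or ATTTA.
EIF2S3 3′UTR, chrX:24095789-24095813 (+): ataTTTTTctccccttgctcttcct
EIF4EBP2 3′UTR, chr10:72187664-72187688 (+): cacaaaatatccattcttgcccaag
EIF2S3 3′UTR, chrX:24095082-24095106 (+): gactaaaattaatataaaaattggc
EIF2S1 3′UTR, chr14:67851004-67851033 (+): ctattaaaatatccactagatgccacctag
EIF1AX 3′UTR, chrX:20143564-20143588 (-): ctacttcgtaagggtaagttttatt

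HuR replicates 1 and 2 had 29 and 279 reads at the first EIF2S3 site, 21 and 86 at the EIF4EBP2 site, 19 and 385 at the second EIF2S3 site, 12 and 38 at the EIF2S1 site, and 11 and 182 at the EIF1AX site. All slices stood at 0 there by the choice of the sites, which came from 150 loci of 769 in member 3′UTRs that held a site in both HuR replicates and in no slice. In coding sequence this was so for 17 of 672 loci. Both counts are of member loci only, with no share over all genes beside them, so nothing particular to the members is read from them. Total, which played no part in the choice, had reads at all of them, 54, 20, 85, 25 and 14 in the same order. TTTTT occurred in the central bases of the first site only, and over the whole site the EIF1AX site also held 1 ATTTA. The first EIF2S3 site had 28 conversion events in HuR replicate 1 and 309 in HuR replicate 2, about 1 event for each read.

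The 5 member sites with the most reads in the lowest slice, among sites found in every slice, are shown with capitals that mark G, the base after which RNase T1 cuts.
EIF4G3 intron, chr1:21494387-21494405 (-): tttGcaaGattaaaactca
EIF2B4 coding, chr2:27592031-27592048 (-): cattcaGttGGGcactcc
EIF4EBP2 3′UTR, chr10:72187757-72187781 (+): tttaactGGaaactGGGGaGGaGGG
EIF4G2 intron with SNORD97, chr11:10823024-10823048 (-): GtcctGtGaGcGaaGattatGaGat
EIF2S3 intron, chrX:24093441-24093465 (+): tctaGGtcttttGaGaGcataGaGc

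The EIF4G3 intron site had 175, 192 and 417 reads in G20, G35 and G45, 20 and 303 in HuR replicates 1 and 2, and 5 in Total. Its conversions were 173, 186 and 410 in the slices, 20 and 293 in HuR and 5 in Total, so close to every read was converted with or without immunoprecipitation. The EIF2B4 coding site was the reverse, with 40, 36 and 127 reads in the slices, 337 and 115 in HuR and 20 in Total, and its conversion events were 0 in every library except HuR replicate 2, which had 1. EIF2B4 encodes a subunit of the nucleotide exchange factor of eIF2, and 63.8% of all member coding reads of HuR replicate 1 lay at this site. The G-rich EIF4EBP2 3′UTR site had 36, 66 and 33 reads in the slices with 7, 4 and 1 conversions. The same site had 5 and 82 reads with 4 and 72 conversions in HuR, and 25 reads with 0 conversions in Total. SNORD97, a snoRNA inside an EIF4G2 intron, held 408, 43 and 29 reads at its site in the slices against 8 and 138 in HuR. EIF2S3, the gamma subunit of eIF2, had 32, 17 and 18 reads at the intron site in the slices and 154 and 1268 in HuR.

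Reads of the initiation factor genes lay in different gene regions in HuR and in the other libraries. Coding sequence held 4.44% (95% Wilson interval 4.09 to 4.83) and 1.87% (1.79 to 1.96) of member reads in HuR replicates 1 and 2. In G20, G35 and G45 it held 35.6% (34.6 to 36.6), 22.7% (21.1 to 24.5) and 23.5% (22 to 25.1), and in Total 38.1% (37.7 to 38.5). Both HuR replicates were thus below every other library for the members. Over all protein-coding genes, coding reads were 341523 of 3822989 sense reads in HuR replicate 1 and 375315 of 20532056 in HuR replicate 2. They were 507052 of 19686502 in G20, 244693 of 2072979 in G35, 210580 of 2507061 in G45 and 3885162 of 9588169 in Total. By these counts HuR replicate 1 was above G20 and G45. Introns held 82.1% and 78.4% of member reads in HuR, 24%, 54.6% and 57.1% in the slices and 28.3% in Total. Of the all-gene sense reads above, 3093253 and 17102663 lay in introns in HuR replicates 1 and 2. In G20, G35 and G45 these were 18819455, 1686781 and 2150339, and in Total 3636671. Over all genes the intron share of HuR replicate 1 was below every slice, and that of HuR replicate 2 was above G35 only. The 3′UTR share of all member reads overlapped between groups, at 10.6% and 16.5% in HuR, 13.3%, 13.2% and 10.8% in the slices and 18.5% in Total.

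**Figure D1:**
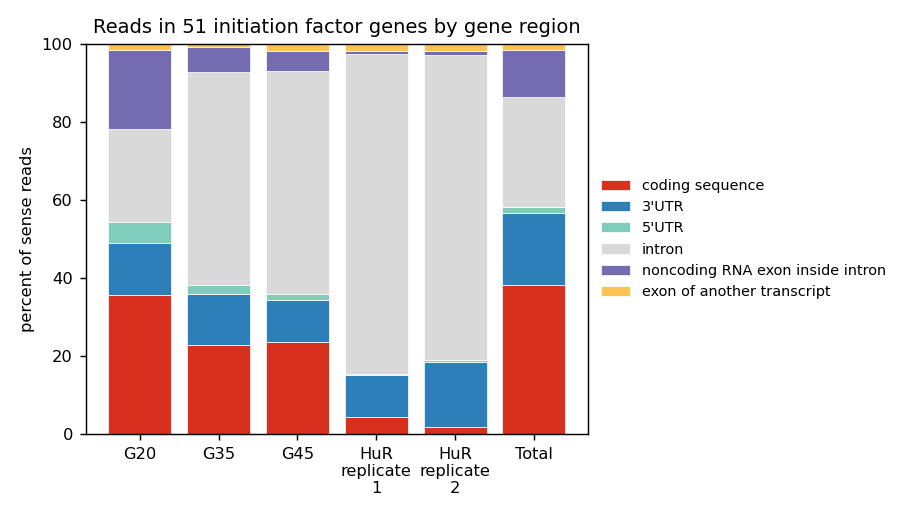
Percent of the sense reads in the 51 initiation factor genes (vertical axis, 0 to 100) that lay in each gene region, 1 stacked bar for each library. Coding sequence (red) holds 4.44% and 1.87% in the HuR replicates and at least 22.7% in the other libraries.

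Within mature transcripts the 3′UTR stood out in HuR. It held 68.8% (66.7 to 70.9) and 87.5% (87.0 to 88.0) of member mature reads in HuR replicates 1 and 2, against 24.5%, 34.4% and 30% in G20, G35 and G45 and 31.9% in Total. Over all protein-coding genes the same share was 41.9% and 86.1% in HuR, 23.4%, 29.6% and 33.4% in the slices and 26.8% in Total. Members were close to all genes in HuR replicate 2 and above them in HuR replicate 1. Expressed as 3′UTR reads for each coding read, members had 2.39 and 8.83 in HuR against at most 0.579 in the other libraries. Without EIF2B4, the member with the most mature reads in HuR replicate 1, the ratio of that library was 6.64. All genes had 0.809 in HuR replicate 1 and 1.56 without its 10 sites with the most reads, and with each site counted once members and all genes had 2.87 and 2.84. Of the members with at least 10 such reads, 21 of 26 and 35 of 46 had more 3′UTR than coding reads in HuR replicates 1 and 2, compared to 6 of 42, 9 of 27 and 9 of 27 in G20, G35 and G45 and 17 of 48 in Total. The same count over all genes is not given, so nothing particular to the members is read from these counts.

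**Figure D2:**
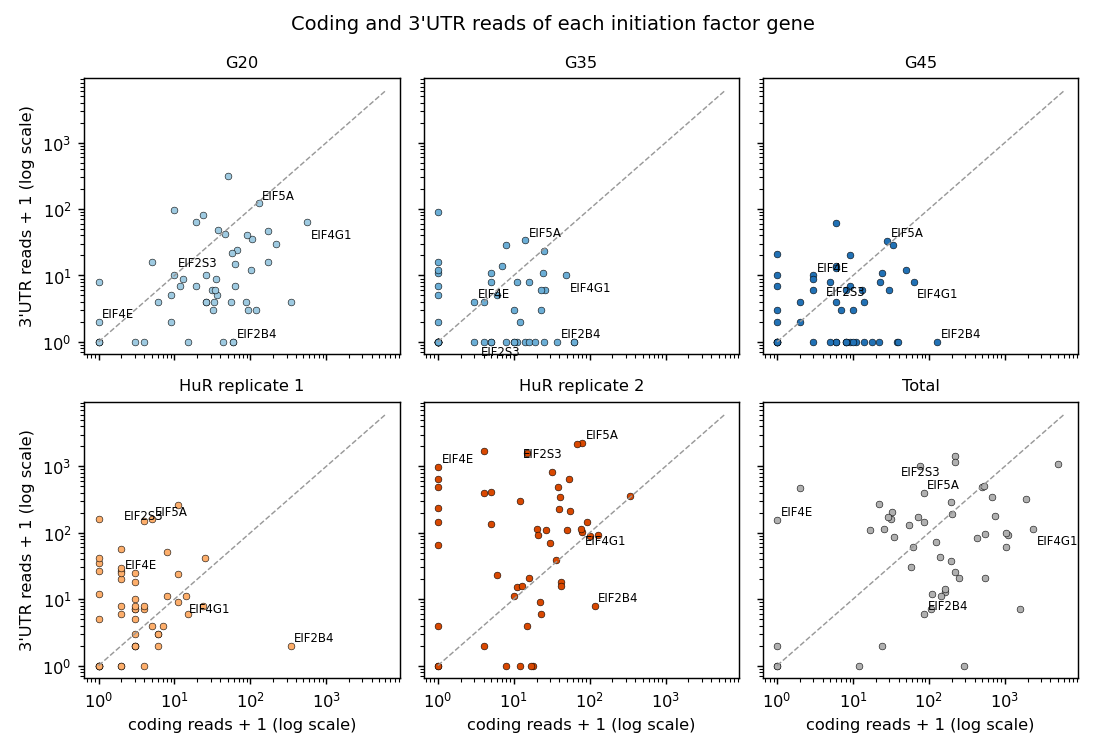
Coding reads (horizontal axis) and 3′UTR reads (vertical axis) of each initiation factor gene, both as reads + 1 on a log scale, with 1 panel for each library and the dashed line marking equal reads. In HuR replicate 2, 35 of the 46 genes with at least 10 reads lie above the line, and in G20 6 of 42. The same count over all genes is not shown.

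HuR was compared with background by gene region, with reads in the coding sequence, 3′UTR, 5′UTR and intron of every protein-coding gene fitted together (edgeR quasi-likelihood test, adjusted p under 0.05). Of the 51 members, 23 had enough reads to be tested in coding sequence, and 15 of these were lower in HuR and none higher. Of all 3074 genes tested in coding sequence, 38.1% were lower and 0.0% higher. The median coding log2 difference was -4.68 for members and -3.87 for all genes, and all 23 members had a negative value. The fit was scaled over the reads of all gene regions, so log2 differences here and below are not ratios of RPM values. Its scaling factors were 0.1655, 1.118 and 1.009 for G20, G35 and G45, and 2.261 and 2.367 for HuR replicates 1 and 2. These calls depended on single libraries and on the scaling. No member was called without G20 or with DESeq2 size factors in edgeR. The same held for all genes, with 0 of 17183 regions called without G20 and 0 of 19367 with DESeq2 size factors. All 15 coding differences kept their direction wherever they were tested. Their size was less stable. EIF5 ranged from -4.85 without HuR replicate 1 to -8.92 without HuR replicate 2, EIF3K from -4.21 to -7.96 and EIF4A3 from -3.35 to -6.52 under the same omissions. Without G20, EIF3B was at -3.72, EIF3I at -3.99 and EIF4G1 at -4.26.

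**Figure D3:**
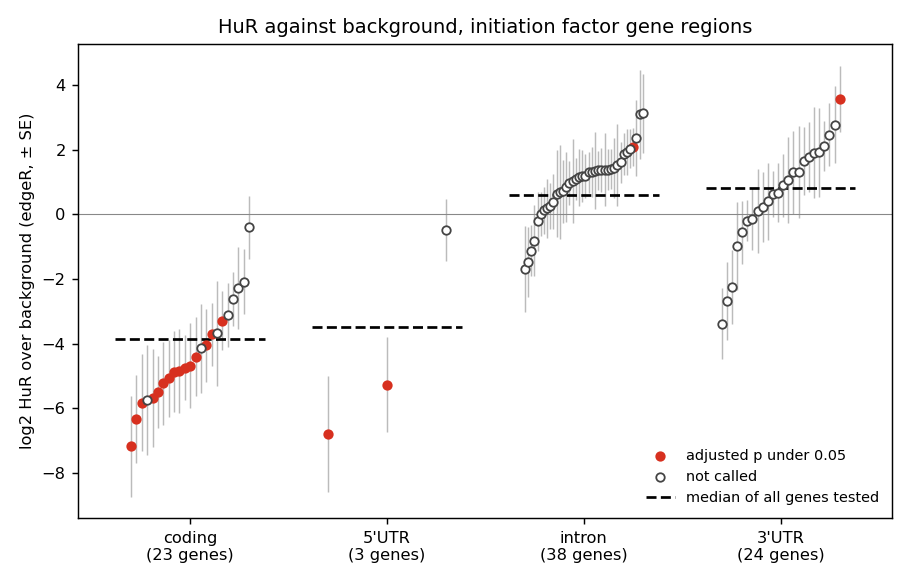
Log2 difference of HuR over background (vertical axis, edgeR, bars are ± SE) for each initiation factor gene tested, grouped by gene region, with filled points for adjusted p under 0.05 and dashed lines for the median of all genes tested. Coding values of all 23 members are below 0, with a median of -4.68, and 3′UTR values have a median of 0.79.

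Subunits of eIF3, which coats the small ribosomal subunit, made up most coding calls, with 8 of 10 tested subunits lower. EIF3G, an RNA-binding subunit on chr19:10225690-10230594, had 119, 60.7 and 12.0 RPM in coding sequence in G20, G35 and G45 and 1.52 and 0.978 in HuR, with 100 in Total. All slices were above both HuR replicates, and Total was within the range of the slices. The log2 difference was -7.19 (SE 1.56, adjusted p = 0.0359), and its counts in HuR were 1 and 3 reads. EIF3A, the largest subunit (chr10:120793182-120840329), rested on more reads, with 339, 62 and 37 in the slices, 14 and 92 in HuR and 1925 in Total. This was 447, 171 and 111 RPM in the slices against 21.2 and 30 in HuR, and its log2 difference was -4.74 (SE 1.01, adjusted p = 0.0359). EIF3B, a scaffold subunit, differed by -5.23 (SE 1.29, adjusted p = 0.0372) and EIF3I by -5.07 (SE 1.19, adjusted p = 0.0359). EIF3J, a loosely bound subunit, differed by -5.84 (SE 1.5, adjusted p = 0.0396) and EIF3K by -5.69 (SE 1.52, adjusted p = 0.0424). EIF3D and EIF3H were also called lower, while EIF3E at -2.08 (adjusted p = 0.172) and EIF3L at -3.68 (adjusted p = 0.142) were not.

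In the eIF4F group, EIF4G1, the main scaffold of eIF4F on chr3:184032283-184053146, had 555, 48 and 62 coding reads in G20, G35 and G45, 13 and 77 in HuR and 2380 in Total. In RPM this was 732, 132 and 187 in the slices against 19.7 and 25.1 in HuR, without overlap, and the log2 difference was -5.50 (SE 1.13, adjusted p = 0.0359). EIF4G3, a paralog of EIF4G1, was lower by a smaller amount (-3.29, SE 0.925, adjusted p = 0.0471). EIF4G2 encodes a related protein that lacks the eIF4E-binding part, and at -2.63 (SE 0.834, adjusted p = 0.0612) it did not pass. Among the eIF4A helicases, EIF4A1 (-3.72, SE 0.970, adjusted p = 0.0407) and EIF4A3, which acts in the exon junction complex (-4.87, SE 1.25, adjusted p = 0.0396), were lower, and EIF4A2 was not called. EIF4E, the cap-binding protein, had almost no coding read anywhere, with 0, 2 and 2 in the slices, 1 and 0 in HuR and 0 in Total, and its copies in the genome leave 35.7% of its words unique.

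In the group of eIF5, eIF5A and eIF5B, EIF5, the GTPase activator of eIF2, had 104, 15 and 23 coding reads in the slices, 0 and 14 in HuR and 219 in Total. The log2 difference was -6.32 (SE 1.37, adjusted p = 0.0359), and all slices were above both HuR replicates in RPM. EIF5B and EIF5A were also lower, at -4.68 and -4.06. In the eIF2 and eIF2B groups 3 members were tested and none was called. EIF2S3 had 57, 18 and 22 coding reads in the slices and 10 and 67 in HuR, a log2 difference of -3.12 that did not pass (SE 0.992, adjusted p = 0.0615). EIF2B4, with the site of unconverted reads described above, had 58, 36 and 127 coding reads in the slices and 338 and 115 in HuR, and its value was -0.40 (SE 0.981, adjusted p = 0.803). EIF2B2, another eIF2B subunit, had 12, 9 and 13 in the slices and 2 and 0 in HuR, all slices above HuR in RPM, with a value of -5.75 (SE 1.72, adjusted p = 0.0530).

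In 3′UTRs, 1 of 24 tested members was higher in HuR and none was lower, beside 0.954% higher and 1.55% lower of all 4716 3′UTRs tested. The member was EIF2S3 (chrX:24073063-24096927), with 21, 0 and 7 3′UTR reads in G20, G35 and G45, 257 and 2174 in HuR and 1178 in Total. In RPM it stood at 27.7, 0.0 and 21.1 in the slices and at 390 and 709 in HuR, with 215 in Total between the groups. The log2 difference was 3.59 (SE 1.02, adjusted p = 0.0476), and it did not pass without G20 or without HuR replicate 2. The median over tested member 3′UTRs was 0.79, close to 0.83 for all genes, and 17 of 24 values were positive.

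Other member 3′UTRs carried many HuR reads without passing the test. EIF5 had 35, 7 and 10 3′UTR reads in the slices, 159 and 1573 in HuR and 1440 in Total. EIF3M, an eIF3 subunit, had 5, 4 and 5 in the slices, 51 and 636 in HuR and 169 in Total, and EIF4E had 1, 3 and 9 in the slices, 24 and 980 in HuR and 156 in Total. In these 3 genes every HuR value in RPM was above every slice, as also in other member 3′UTRs such as those of EIF5A2 and EIF2S1. Shares of such orders over all genes are not given, here or for the coding sequences above, so nothing particular to single genes is read from them. The log2 differences of EIF5, EIF3M and EIF4E were 2.12 (SE 0.786, adjusted p = 0.0899), 2.47 (SE 0.970, adjusted p = 0.105) and 2.78 (SE 1.18, adjusted p = 0.129). EIF5A had 121, 33 and 32 3′UTR reads in the slices, 159 and 2279 in HuR and 395 in Total. EIF4EBP2, which encodes a repressor of eIF4E, had 97, 89 and 60 in the slices, 151 and 1710 in HuR and 1012 in Total. In RPM, EIF5A was higher in HuR (241 and 743 against at most 160), while EIF4EBP2 overlapped (229 and 557 against 128 to 246). Their log2 differences were 0.64 (SE 0.719) and -0.19 (SE 0.641). The fit was scaled over all gene regions, so its differences are not ratios of the RPM values. EIF4A1 went the other way, with 315, 22 and 28 3′UTR reads in the slices and 23 and 224 in HuR (log2 difference -3.38, SE 1.09, adjusted p = 0.0629). Most of its G20 reads lay at 1 G-rich site, the G20 3′UTR site with the most member reads, whose central bases are shown with G in capitals.
EIF4A1 3′UTR, chr17:7481855-7481879 (+): aGGaGcaGcaGGaGGGGGGaGGGaa

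This EIF4A1 site had 294 reads with 10 conversion events in G20. The sites that overlapped it had 15 and 28 reads in G35 and G45, 8 and 134 in HuR and 180 in Total. In both HuR replicates the 3′UTR site with the most member reads was in EIF5A, whose product binds stalled ribosomes. It lay at chr17:7215148-7215250 in HuR replicate 2 with 1916 reads and 2183 conversion events, and its 111 reads in HuR replicate 1 carried 114. Sites that overlapped it had 43, 11 and 17 reads in the slices and 169 in Total. In the HuR replicate 2 site of 103 bases T made up 23.3%, and it held no TTTTT and 1 ATTTA.

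The place of the main site along the 3′UTR differed between libraries in some genes and was shared in others. EIF2S3 reads were spread over 30 and 25 sites in HuR replicates 1 and 2, and the site with the most reads held 10.1% and 17.7% of them. In Total, 42.7% of EIF2S3 3′UTR reads lay at 1 site centered 53 bases after the stop codon, where HuR replicates 1 and 2 had 24 and 367 overlapping reads. EIF4EBP2, with a 3′UTR of 6871 bases, had the G-rich site described above as its main site in every slice, 6269 to 6285 bases after the stop codon, with 37.1%, 74.2% and 55.0% of its 3′UTR reads. The main EIF4EBP2 sites of HuR lay 6173 and 1291 bases after the stop codon in replicates 1 and 2. In EIF5 both HuR replicates had their main site at 947 bases, where replicate 1 had 40 and replicate 2 had 281 reads. In EIF5A the main site was shared, with 69.8% and 84.1% of the reads of HuR replicates 1 and 2 at 86 and 70 bases, 53.1% in G45 at 101 bases and 42.8% in Total at 97 bases. The main EIF5A sites of G20 and G35 lay at 417 and 440 bases.

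**Figure D4:**
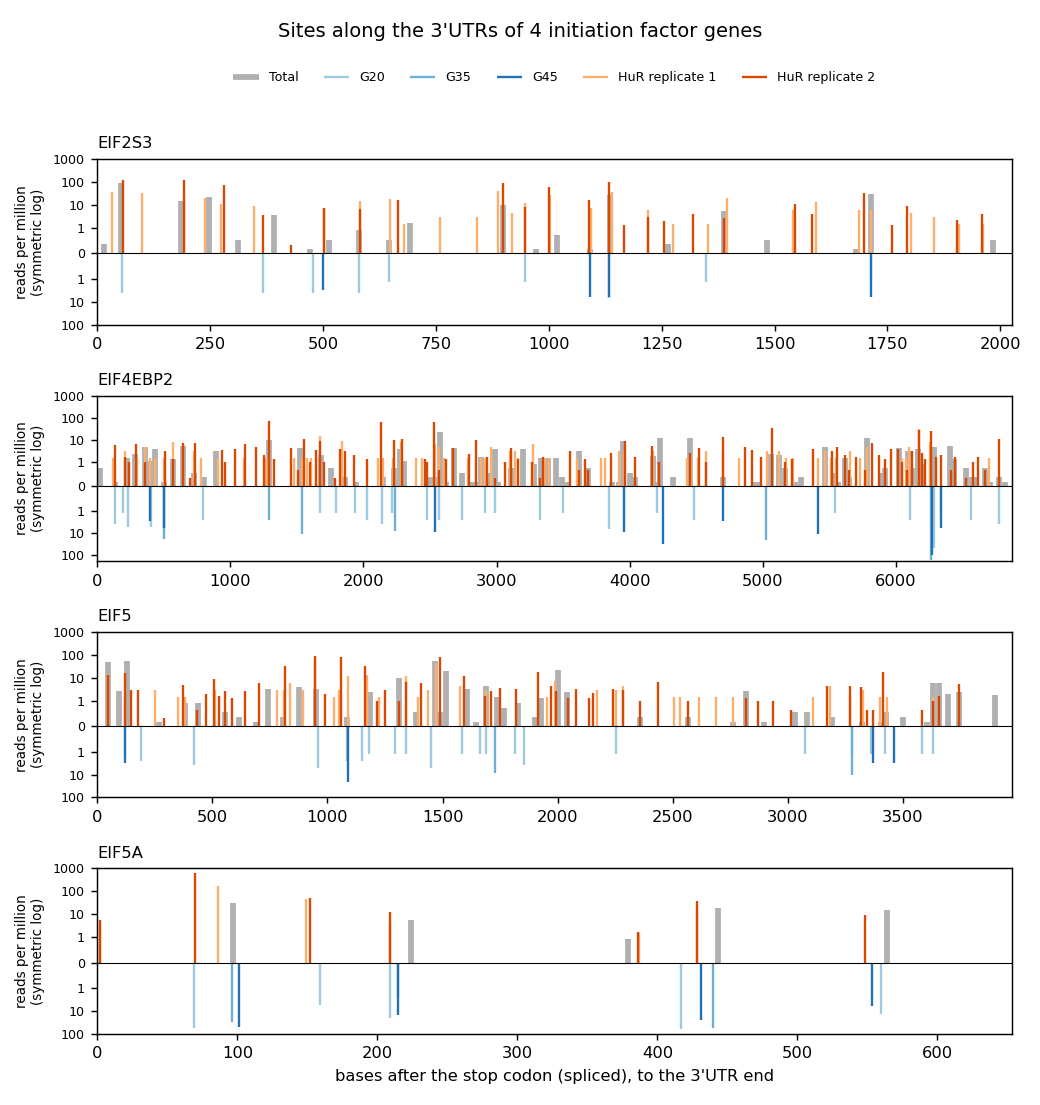
Sites in the 3′UTRs of EIF2S3, EIF4EBP2, EIF5 and EIF5A, the members with the most HuR 3′UTR reads, by spliced distance of the site's midpoint from the stop codon in bases (horizontal axis) and RPM on a symmetric log scale (vertical axis). HuR replicates (orange) and Total (gray) are drawn upward and the slices (blue) downward, and the EIF4EBP2 slices share a main site between 6269 and 6285 bases.

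Only 3 members had enough reads in the 5′UTR, the leader that scanning ribosomes pass, and 2 of them were lower in HuR, beside 36.7% lower and 0.375% higher of all 267 5′UTRs tested. EIF4G1 had 63, 11 and 1 5′UTR reads in the slices, 1 and 2 in HuR and 207 in Total, and its log2 difference was -6.81 (SE 1.80, adjusted p = 0.0417). EIF4G3 had 69, 4 and 11 in the slices, 3 and 7 in HuR and 175 in Total, with a log2 difference of -5.27 (SE 1.48, adjusted p = 0.0470). Both rested on few reads in HuR. EIF4G2 was different, with 36, 19 and 7 5′UTR reads in the slices, 27 and 344 in HuR and 24 in Total (log2 difference -0.49, adjusted p = 0.747). A single EIF4G2 site held 45.5% and 41.4% of all member 5′UTR reads of HuR replicates 1 and 2.

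Introns, which are present in the nuclear precursor and not in the mature mRNA, held most HuR reads of the members. Of 38 members tested, 1 was higher in HuR and none lower, beside 2.63% higher and 2.13% lower of all 11310 introns tested. The member was again EIF2S3, with 80, 53 and 54 intron reads in the slices, 654 and 5590 in HuR and 553 in Total (log2 difference 2.08, SE 0.586, adjusted p = 0.0471). It did not pass without any 1 of the slices or without HuR replicate 2, and it was 3.14 without HuR replicate 1. With sites counted in place of reads the difference was 0.08. The median was 1.19 for members and 0.60 for all genes, and 33 of 38 members had positive values. EIF4G3, with an intron total far longer than that of most members, held the most intron reads in all 6 libraries, from 22.7% of member intron reads in G20 to 43.0% in G45. In G20, G35 and G45, 175, 192 and 417 of its 484, 414 and 687 intron reads lay at the converted site shown above. In HuR replicates 1 and 2 these were 20 and 303 of 3909 and 21548. Per kb of intron, EIF3E had 128 reads in HuR replicate 2 and EIF4G3 59.2.

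Some single intron sites had most of their reads in 1 library. In G20 an EIF4B site at chr12:53405305-53405321 had 231 reads with 1 conversion event, while the other libraries had at most 3 reads there. In HuR replicate 1 an EIF3B site at chr7:2395198-2395214 had 237 reads with 181 conversion events at 1 location, compared to 25 reads in HuR replicate 2, 8, 4 and 48 in G20, G35 and G45, and 0 in Total. Noncoding RNA exons inside member introns held 20.2% of member reads in G20, 6.43% in G35, 5.29% in G45 and 12.1% in Total. In these libraries they were mainly snoRNAs, which guide modification of rRNA. In HuR noncoding RNA exons held 0.69% and 0.848%, less than in any other library. A long noncoding RNA in EIF3L held the most of these HuR reads, with 49 and 349 in replicates 1 and 2. No share over all genes is given beside these values, so nothing particular to the members is read from them. SNORA81 in EIF4A2 had 107, 7 and 10 reads in the slices, 2 and 1 in HuR and 3335 in Total. SNORD10 in EIF4A1 had 268, 29 and 11 in the slices, 3 and 37 in HuR and 1056 in Total.

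Levels of mature transcripts, in RPM per kb of length, differed in order between libraries. EIF5A and EIF4A1 were the first and second members in G20, at 339 and 274 RPM per kb, and in G35, at 105 and 72.2, followed by EIF3I (203) in G20 and EIF3G (67.6) in G35. In G45 EIF2B4 was first at 233, with all of its 127 reads at the unconverted site, followed by EIF5A at 152 and EIF4A1 at 104. HuR replicate 1 had EIF2B4 at 313, EIF5A at 197 and EIF2S3 at 117, and HuR replicate 2 had EIF5A at 609, EIF2S3 at 211 and EIF4E at 132. Total had EIF4G2 at 294, EIF6 at 178 and EIF3D at 156. EIF5A was thus among the first 3 in every library but Total, and EIF6, second in Total with 1046 mature reads, had 86, 0 and 8 in the slices and 9 and 35 in HuR. The members with the most Total reads in their groups were EIF1AX, EIF2S3, EIF2B2, EIF3A, EIF4A1, EIF4H, EIF4EBP2, EIF4G2, EIF5 and EIF6.

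**Figure D5:**
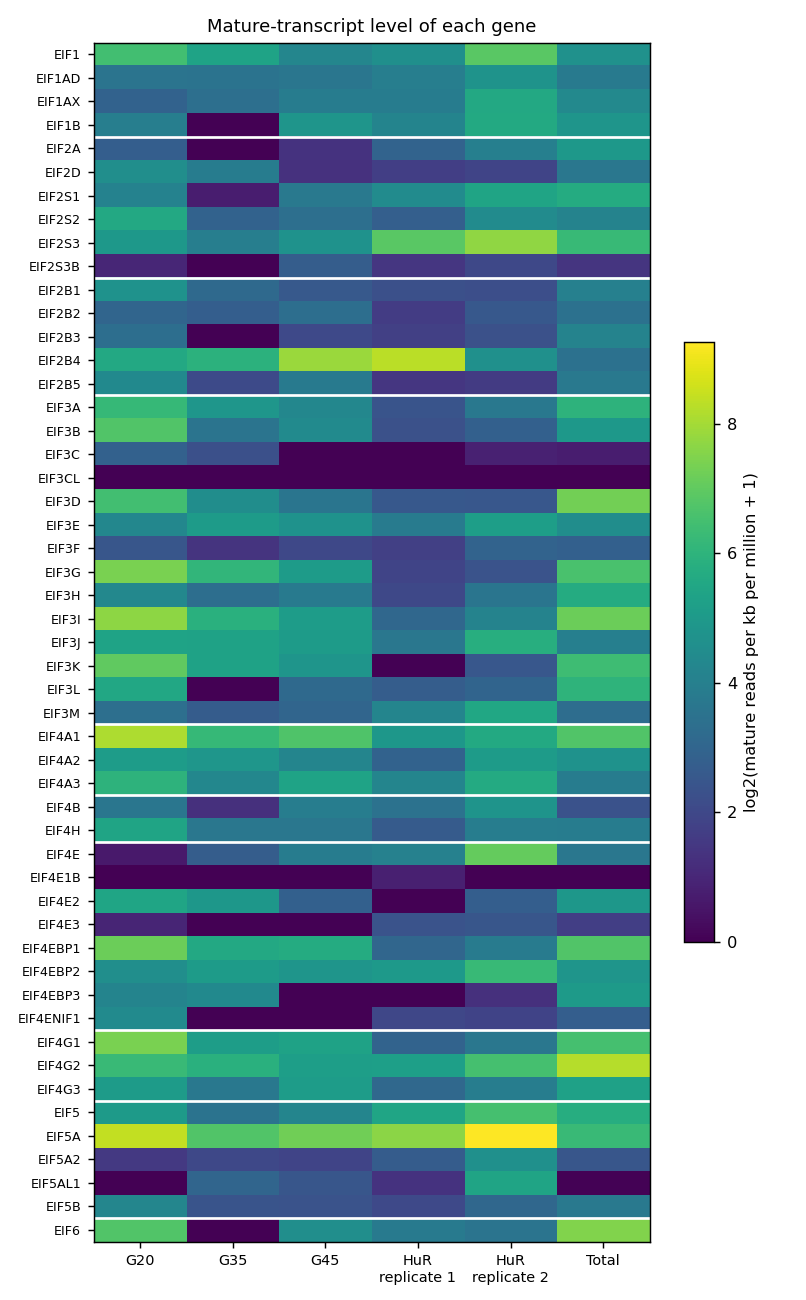
Mature-transcript levels in RPM per kb in each library (columns), as log2 of the value + 1 in color, for the 51 initiation factor genes (rows) with white lines between the groups eIF1/1A, eIF2, eIF2B, eIF3, eIF4A, eIF4B/4H, eIF4E and binding proteins, eIF4G, eIF5/5A/5B and eIF6. The highest level is that of EIF5A in HuR replicate 2 (609 RPM per kb), and EIF3CL, with no mature read, is dark in all 6.

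Coding sequence and UTRs were also summed for each gene. Of 44 members tested in mature transcripts 0 were called by edgeR, beside 0.0% of all 8695 genes in either direction. At an unadjusted p under 0.05 there were 17 members and 2388 genes. DESeq2 called 3 members higher and 8 lower, beside 555 and 835 of all 8695 genes. With edgeR on sites in place of reads, 6 of 34 members were higher and 9 lower, beside 1395 and 1638 of all 5934 genes. The median log2 difference was -0.67 for members and -0.04 for all genes. The lowest value was -4.75 for EIF3G (SE 0.916, adjusted p = 0.0734), with 138, 27 and 12 reads in the slices, 2 and 14 in HuR and 581 in Total. EIF2S3 had 78, 18 and 29 mature reads in the slices, 267 and 2241 in HuR and 1396 in Total, a value of 2.63 (SE 0.657, adjusted p = 0.0781). Ratios to the single Total library, which has no replicate check, were called where every library of a group lay past 2-fold for genes with at least 20 reads in that group and Total together. HuR was past 2-fold above Total for 4 of 48 members and below it for 21, beside 10.2% above and 25% below of all 12462 genes. The 4 were EIF5AL1, EIF2B4, EIF5A and EIF4B, of which only EIF2B4 has mostly unique sequence. The EIF2B4 value rested on the unconverted site described above, with 337 of 339 mature reads in HuR replicate 1 and 115 of 122 in HuR replicate 2. The lower members included 8 eIF3 subunits, for example EIF3D (log2 ratios -4.89 and -5.03 in replicates 1 and 2) and EIF3G (-4.81 and -4.49), and EIF6 (-3.73 and -4.04).

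In 3′UTRs alone, HuR was past 2-fold above Total for 8 of 40 members and below for 6, beside 23.4% above and 13.2% below of all genes. EIF4B (2.90 and 4.20), EIF4A3 (2.48 and 3.84), EIF3M (1.34 and 2.75) and EIF5A (1.75 and 3.37) were among the 8. EIF2S3, the only 3′UTR called against background, was not (0.86 and 1.72). Background was past 2-fold above Total for 2 of 48 members and below it for 6 in mature transcripts, beside 5.14% above and 9.05% below of all genes. The 2 were EIF2B4 and EIF3J, and the unconverted EIF2B4 site held 40 of 58, 36 of 36 and 127 of 127 of its mature reads in G20, G35 and G45. When scaled to all reads of the library, 0 of the 48 members were above in background and 39 below, beside 160 above and 8190 below of all 11949 genes. In 3′UTRs alone, background was past 2-fold above Total for 1 of 38 members and below for 12, beside 3.01% above and 22.7% below of all genes, and EIF2S3 was among the 12.

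Conversions at member sites were most frequent in HuR. There were 91.6 and 103 conversion events per 100 reads in HuR replicates 1 and 2, 19.4, 70.9 and 56.7 in G20, G35 and G45, and 16.2 in Total. A read can carry more than 1 event, so the value can exceed 100. At sites with exactly 1 read, 87.5% and 83.8% were converted in HuR, 30.8%, 65.9% and 66.1% in the slices and 24.8% in Total. Within HuR replicate 1 the member coding reads had 27.3 events per 100 reads against 97.8 in 3′UTRs, and without the EIF2B4 site the coding value was 75.4. In HuR replicate 2 the coding value was 86.3 and the 3′UTR value 102. Over all protein-coding genes the values were 62.7 and 97.8 in HuR, 9.19, 52.8 and 45.9 in the slices and 26.2 in Total.

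U-rich words were also searched around the sites. Of 25-base windows centered on member 3′UTR sites, 18.5% (15.1 to 22.5) and 20.8% (17.8 to 24.2) held TTTTT or ATTTA on the sense strand in HuR replicates 1 and 2. The share was 9.0% (5.77 to 13.8) of 200 windows in G20, 28.6% (17.2 to 43.6) of 42 in G35, 25% (16.2 to 36.4) of 68 in G45 and 16.3% (13.8 to 19.3) of 679 in Total. The intervals of G35, G45 and both HuR replicates overlapped, and G20 was the lowest. At 3′UTR sites of all protein-coding genes the shares were 20.1% and 24.5% in HuR, 8.6%, 24.3% and 28.1% in the slices and 14% in Total. T made up 34.7% and 35.0% of the bases in member windows in HuR, 27.6%, 31.3% and 34.2% in the slices and 30.9% in Total, and G made up 18.7% and 18.9% in HuR against 25.9%, 25% and 21.8% in the slices.

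Other genes of translation were compared in the same fit, where 38.1% of all tested coding sequences were lower. Of 23 partners and regulators of initiation that the name rule leaves out, 8 were tested in coding sequence, and 4 were lower in HuR and none higher. These were PPP1R15A and PPP1R15B, which direct dephosphorylation of eIF2 (-6.07 and -4.07), LARP1, a regulator of ribosomal protein mRNAs (-5.53), and CTIF (-4.83). None of their 12 3′UTRs or 22 introns tested was called. Cytosolic ribosomal protein genes had 30 of 38 tested coding sequences lower, with a median of -5.81, and a 3′UTR median of -0.27. Elongation factor and poly(A)-binding protein genes had 3 of 7 coding sequences lower, with a median of -4.69 and a 3′UTR median of 2.06 over 5 genes. The shares of the partners and of the elongation factor group were near that of all genes. Differences between these groups and the initiation factors were not tested.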

How the data were processed

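The authors sequenced 50 bp single reads, trimmed adapters, dropped reads under 10 bp, aligned the rest to hg19 using bowtie (its version is not given in the sources used here) and grouped them with PARalyzer, which used reads of a single genomic position and at most 2 conversions. For each site the authors deposited 3 raw counts, of reads, converted positions and conversion events. The tables of clusters were not used here. Removal of PCR duplicates is not given in the sources used here.

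From the groups tables, each site was assigned by its midpoint and strand to the coding sequence, UTR or intron of the Ensembl canonical transcript of each protein-coding gene in GENCODE release 44 mapped to GRCh37. Noncoding RNA exons inside introns were kept apart, and site sequences matched GRCh37. Reads were summed per gene region and per mature transcript and tested with edgeR 4.0.16 (TMM, filterByExpr, quasi-likelihood, Benjamini-Hochberg over all features) in R 4.3.3, with DESeq2 1.42.0 as an alternative. Python 3.11.15, numpy 2.4.6, pandas 2.3.3 and matplotlib 3.10.9 did the rest. A pseudocount of 0.5 reads was added before ratios to Total. Fits were tested on simulated data.

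Members and lists were chosen with earlier results of these data known. Named genes were the 3 members with the most reads per kb in each library, the 10 called regions of largest change in each direction, the member with the most Total reads in each of 10 groups, the member site with the most reads by library and region, the 5 HuR and 5 background sites printed, and members without reads. The alternatives were other scalings and filters, DESeq2, sites in place of reads, any overlap, and leaving out libraries or sites. EIF3E, EIF3L, EIF3D, EIF3H, EIF4A1, EIF4A2, EIF5A, EIF5B, EIF4E coding values, EIF3M and EIF4EBP2 and the snoRNA values were added after their values were seen.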

Additional observations from a re-analysis of the deposited data

How the results depend on the processing

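Of the 19 member regions called, all kept their direction in every alternative in which they were tested. The number called higher in HuR was 2, and it was 0 with DESeq2 size factors in edgeR, 4 with DESeq2, 8 with no low-count filter, 6 with sites counted in place of reads, 0 with any 1 bp overlap, 7 without the 10 sites with the most reads, and 0 to 10 when 1 library was left out. The number called lower was 17, beside 1583 of all 19367. With DESeq2 size factors it was 0, beside 0 of all 19367, and with no low-count filter 11, beside 1289 of all 56842. When 1 slice was left out it was 0 to 23, beside 0 to 2498 of all regions, with 0 without G20. With 1 HuR library left, that library was assumed to vary like the slices, so no counts are given for those fits. DESeq2 size factors moved the median log2 difference of all regions by -0.17 and of mature transcripts by 0.19. In mature transcripts, where 0 members were called, 3 were higher and 8 lower with DESeq2, beside 555 and 835 of all 8695 genes. With no low-count filter 3 were higher and 2 lower, beside 820 and 323 of all 17345. With sites counted in place of reads 6 were higher and 9 lower, beside 1395 and 1638 of all 5934. The cause was not tested. The lowest HuR ratio of 3′UTR to coding reads was 4.13 times the highest of the other libraries, 2.68 times when each site was counted once and 11.7 times without the member with the most reads. Against Total, scaling to all reads of the library gave 1 of 48 members above 2-fold and 24 below in HuR, beside 496 and 5018 of all 12462 genes. In background it gave 0 above and 39 below, beside 160 and 8190 of all 11949 genes. With 3′UTR reads alone, chosen after seeing the data like the next setting and the removal of 10 sites for the ratio, 8 members were above and 6 below in HuR, and 1 above and 12 below in background. With coding reads alone, 1 of 45 members was above and 31 below in HuR, beside 310 above and 6107 below of all 10480 genes. In background 4 of 45 were above and 5 below, beside 553 above and 1099 below of all 10514 genes. For windows with TTTTT or ATTTA, the lowest HuR share minus the highest of the other libraries was -10.1 percentage points and became -2.0 with sites of at least 5 reads. No paired analysis was possible because the slices have no replicate numbers in the labels. Depth was lowest in G35 and G45, with 892 and 1003 member mature reads.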

Other observations

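Antisense reads at mature exons of initiation factor genes, at sites assigned to no gene on their own strand, were few. They made up 1.39% of sense and antisense reads in G20, 7.56% in G35, 5.73% in G45, 7.23% and 2.23% in HuR replicates 1 and 2, and 0.735% in Total. Over all protein-coding genes the shares were 9.09%, 19.2%, 24.8%, 27.3%, 6.9% and 2.4% in the same order, higher than for the members in every library. The antisense site with the most reads lay in EIF4EBP2 in G35 (35 reads) and in HuR replicate 1 (45 reads).

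ELAVL1, the gene of HuR itself, whose coding reads cannot be told apart from those of the HuR transgene, had 223, 81 and 132 coding reads in G20, G35 and G45, 59 and 473 in HuR replicates 1 and 2, and 842 in Total. Its 3′UTR had 35, 13 and 23 reads in the slices, 208 and 1991 in HuR and 324 in Total. Its 3′UTR reads outnumbered its coding reads in both HuR replicates and in no other library.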
